A study of Vitis vinifera with 2 samples.

Results

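A pair of predicted miRNA hairpins of grapevine lies side by side on the plus strand of chromosome 1, and the small RNAs cut from them are entries novel_mir_113 and novel_mir_114 of the deposited table (novel_mir_5 and novel_mir_6 in the article). These are 2 of the 299 entries in the table. They were picked for their read counts in the 2 libraries and for the 140 nt between their hairpins, so their levels are given here as a description, without a test. The plants were micropropagated 'Muscat Hamburg' plantlets, 6 weeks old, and the labels name leaf as the tissue. The paper's methods describe collecting the shoot apex together with 1 developed leaf. The cold treated (CT) library came from plantlets that had spent 4 h at 4 °C, whereas those of the library without cold treatment (NCT) stayed at 26 °C. Each library was made from 3 pooled plantlets, and each condition had 1 library, so no value below has a replicate check.

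In plants, a miRNA is cut from the stem of a hairpin transcript by a Dicer-like enzyme, which leaves a duplex of a 5p arm and a 3p arm whose 3′ ends overhang by 2 nt. One strand is then loaded into an Argonaute protein and pairs with mRNAs, which are cut or kept from being translated. The miR482 family, with grapevine miR482 and miR3633 among its relatives, is known for pairing with transcripts of disease resistance genes of the NBS-LRR class, at the stretch that encodes their nucleotide-binding loop. Its members of 22 nt are known to start the production of phased secondary siRNAs from such transcripts.

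Both hairpins are shown first, because their arms carry the likeness described later. Sequences are given as RNA, and capitals mark the 5p arm and then the 3p arm. The hairpin of novel_mir_113 spans chr1:3865565-3865681 and that of novel_mir_114 spans chr1:3865822-3865924, both on the plus strand of the 12X grapevine genome.
novel_mir_113: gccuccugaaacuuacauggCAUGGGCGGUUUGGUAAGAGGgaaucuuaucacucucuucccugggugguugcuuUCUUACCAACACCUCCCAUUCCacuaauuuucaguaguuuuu
novel_mir_114: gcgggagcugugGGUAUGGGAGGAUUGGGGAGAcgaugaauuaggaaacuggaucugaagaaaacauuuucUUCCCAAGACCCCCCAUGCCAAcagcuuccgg

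Both places are annotated as intergenic. The hairpin of novel_mir_113 is 117 nt long and that of novel_mir_114 is 103 nt long, and together with the 140 nt between them they cover 360 nt. Among the 65 predicted hairpins whose sequence was at hand, the next closest neighbours on one strand were 1507 nt apart, hairpins that overlap each other left aside. The miRNA listed with reads is the 5p arm in novel_mir_113, at chr1:3865585-3865605, and the 3p arm in novel_mir_114, at chr1:3865893-3865914. The listed arms are thus the outermost 2 of the 4 arms, with 287 nt between them.

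**Figure D1:**
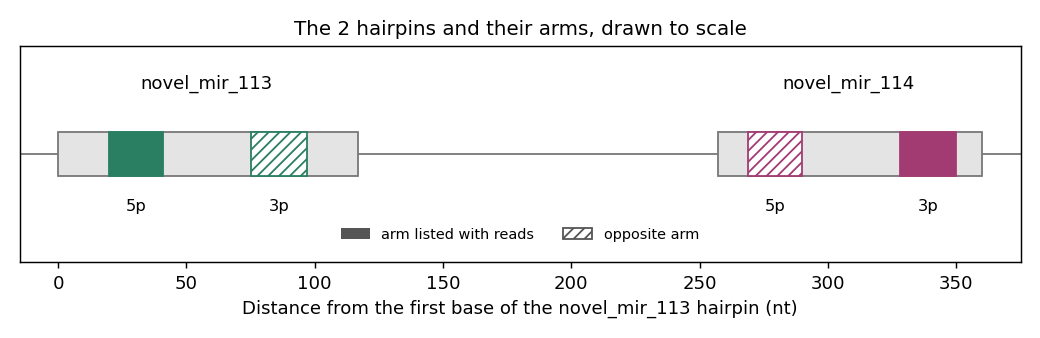
Positions of both hairpins (grey boxes) and their arms along the plus strand, in nt from the first base of the novel_mir_113 hairpin. Filled boxes are the arms listed with reads and hatched boxes the opposite arms, and 140 nt separate the hairpins.

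The 4 arms are printed below with bases 2 to 8, the seed, in capitals.
novel_mir_113 5p: cAUGGGCGguuugguaagagg
novel_mir_113 3p: uCUUACCAacaccucccauucc
novel_mir_114 5p: gGUAUGGGaggauuggggaga
novel_mir_114 3p: uUCCCAAGaccccccaugccaa

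In each hairpin the 5p arm has 21 nt and the 3p arm 22 nt. Novel_mir_113, as listed, therefore has 21 nt and starts with C, and novel_mir_114 has 22 nt and starts with U. Of the 299 entries, 221 have 21 nt and 34 have 22 nt, and 38 (novel_mir_113 included) have 21 nt and start with C, beside 23 (novel_mir_114 included) that have 22 nt and start with U. None of the other entries and none of the 162 known grapevine miRNAs compared here carries the seed of any of the 4 arms.

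Each hairpin was predicted to fold into a single stem with 1 terminal loop. The minimum free energy at 37 °C was -45.3 kcal/mol for novel_mir_113 and -52.6 kcal/mol for novel_mir_114. Per nt, novel_mir_114 ranked 8th lowest among the 65 hairpins at -0.51 kcal/mol, and novel_mir_113 ranked 28th at -0.39 kcal/mol, beside a median of -0.32 kcal/mol. In novel_mir_113, 19 of the 21 bases of the 5p arm and 19 of the 22 bases of the 3p arm were paired, and in novel_mir_114 these numbers were 19 and 18. Within each hairpin 17 pairs joined the 5p arm directly to the 3p arm. All 4 arm ends gave a 3′ overhang of 2 nt, the form that a Dicer-like enzyme leaves, as did both ends in 13 of the 18 hairpins for which both arms were given, these 2 included. The authors' prediction set limits on hairpin energy and on pairing between the arms. The energies and paired bases above thus follow in part from how the hairpins were picked.

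**Figure D2:**
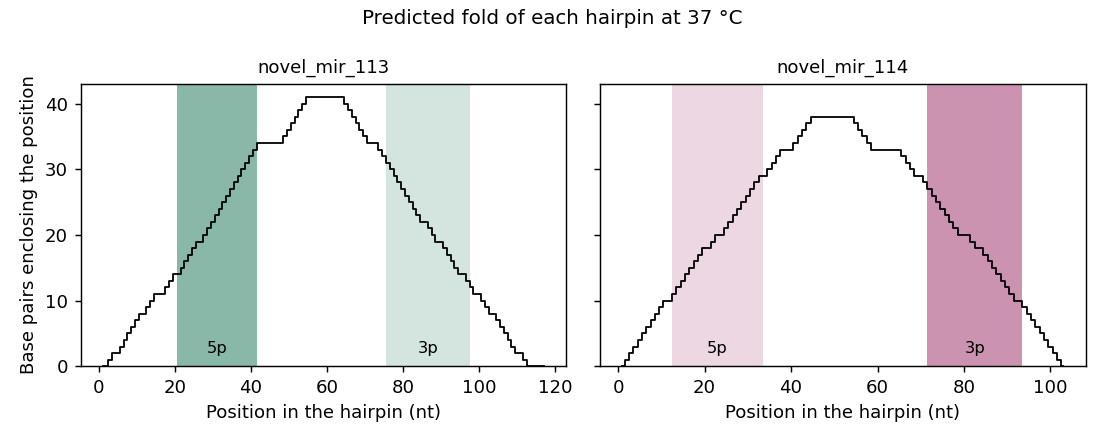
Predicted fold of each hairpin, as the number of base pairs that enclose each position (nt from the hairpin's first base). The darker band is the arm listed with reads and the paler band the opposite arm, and both arms lie on the rising and falling sides of 1 stem.

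The CT library held 25915815 clean reads and the NCT library 21355400 clean reads. Of these, 97572 reads in CT and 92912 reads in NCT are listed under predicted miRNAs. Novel_mir_113 had 23311 reads in the CT library and 25311 reads in the NCT library, the highest count of any entry in both. That was 23.9% (95% Wilson interval 23.6 to 24.2%) of the listed reads in CT, against 27.2% (27.0 to 27.5%) in NCT. Novel_mir_114 was not listed in the CT library and had 4288 reads in the NCT library, where it stood 6th of 210 entries and held 4.62% (4.48 to 4.75%) of the listed reads. All intervals here cover counting error only.

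Scaled to 1000000 clean reads (TPM, the study's unit), novel_mir_113 reached 899 TPM (888 to 911 TPM) in CT and 1185 TPM (1171 to 1200 TPM) in NCT, a log2 ratio of CT to NCT of -0.40 with a counting error of 0.013 (SE). This ratio moves with the scaling. The median log2 ratio of the 103 entries listed in both libraries was -0.41, so novel_mir_113 sat 0.01 above it, with 53 of these entries below it and 49 above. With the median-of-ratios or the TMM factors in place of clean reads, its log2 ratio was 0.01, near 0 given the counting error. Relative to the entries found in both libraries, the reads of novel_mir_113 were thus in the middle of the distribution.

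The level of novel_mir_114 was 201 TPM (195 to 207 TPM) in NCT. In the CT library 1 read is worth 0.0386 TPM, and the lowest count listed in either library was 5 reads. A count of 0 therefore means that the entry was not listed, and unlisted reads cannot be told apart from no reads. If a sequence with 5 reads would always have been listed, the level of novel_mir_114 was at least 1041-fold lower in CT. Without that condition the counts set no bound. The condition was not tested, and novel_mir_112, described below, was not listed in CT although its hairpin holds an entry with 2897 CT reads. The CT library covers 1 time, 4 h of cold. The pair of counts carries no test, because it was used to choose the entry and because each condition had 1 library.

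**Figure D3:**
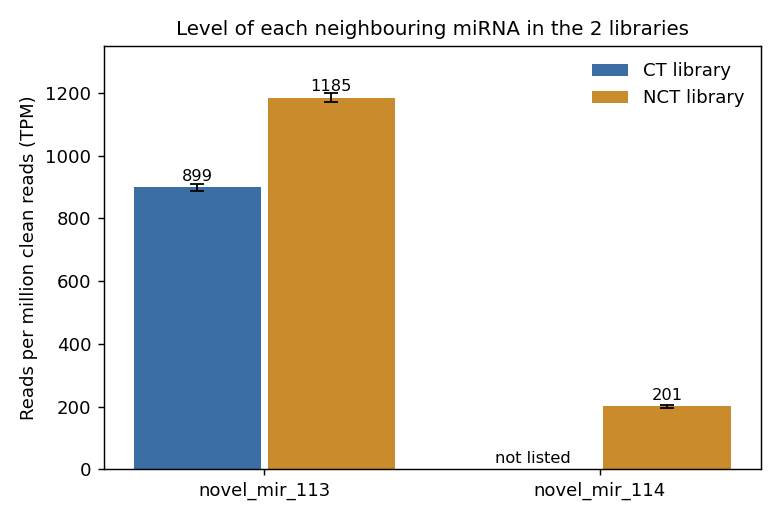
Level of novel_mir_113 and novel_mir_114 in the CT and NCT libraries, in TPM (reads in 1000000 clean reads), with 95% Wilson intervals for counting error. Novel_mir_113 is at 899 TPM in CT and 1185 TPM in NCT, while novel_mir_114 is not listed in CT and is at 201 TPM in NCT.

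Of the study's limits, a level over 10 TPM in at least 1 library and a log2 ratio over 1 in size were used here, and its limit on p-values was not applied. Among the 28 entries over 10 TPM, 7 (25.0%) were lower in CT by these limits or listed in NCT alone, and 5 (17.9%) were higher or listed in CT alone. Novel_mir_114 was 1 of the 7, and novel_mir_113 was in neither count. Over all entries, 107 of 299 entries (35.8%) were listed in the NCT library only. Both members were selected on these very counts, so nothing is read from their place among them.

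Of the 15 entries with 1000 or more reads in either library, 10 were listed in both, 3 in NCT only and 2 in CT only. The NCT-only entry with the next most reads after novel_mir_114 was novel_mir_112, with 3445 reads, followed by novel_mir_168 with 1625 and novel_mir_162 with 218. The hairpin of novel_mir_112, also on chromosome 1, holds the sequence of novel_mir_261, an entry with 2897 reads in CT and not listed in NCT. That hairpin was thus listed in both libraries under different names. No such second entry exists for novel_mir_114. None of the other 298 entries shares a run of 14, 16 or 18 nt with either strand of its hairpin, and the longest run shared by any is 9 nt. The same holds for the hairpin of novel_mir_113, and the opposite arm of neither hairpin is an entry of the table.

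**Figure D4:**
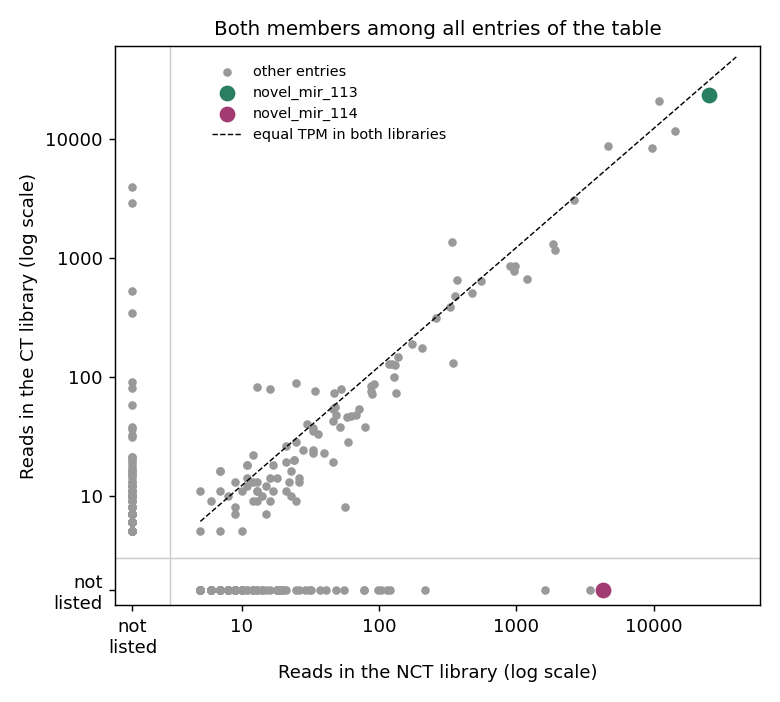
Reads of all 299 entries in the CT library (vertical, log scale) against the NCT library (horizontal, log scale). Entries missing from a library lie in the strips marked as not listed, and the dashed line marks equal TPM. Novel_mir_113 is the entry with the most reads in both libraries, and novel_mir_114 lies in the strip not listed in CT, at 4288 NCT reads.

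The 3 entries listed next had 1000 or more reads in both libraries and log2 ratios nearest to that of novel_mir_113, out of 7 others with such counts. Novel_mir_178 had 322 TPM in CT and 456 TPM in NCT, a log2 ratio of -0.50. Novel_mir_154 had 443 TPM in CT and 665 TPM in NCT, a log2 ratio of -0.59. Novel_mir_182 had 119 TPM in CT and 122 TPM in NCT, a log2 ratio of -0.04. With 2 libraries, a likeness of this kind rests on a single ratio for each entry.

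Within the pair, novel_mir_114 contributed none of the 23311 listed reads in CT and 14.5% (95% Wilson interval 14.1 to 14.9%) of the 29599 reads in NCT. In NCT there were thus 5.90 reads of novel_mir_113 for each read of novel_mir_114. The sum over both hairpins counts novel_mir_114, which was not listed in CT, as 0 reads there. So counted, the pair reached 899 TPM in CT and 1386 TPM in NCT, a log2 ratio of -0.62. With the listed reads as totals the log2 ratio of the pair was -0.42, and with the median of ratios or TMM it was -0.21. Any unlisted CT reads of novel_mir_114 would raise these ratios and its share in CT. The share within the pair does not depend on library totals, since both counts come from the same library.

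The table also gives each hairpin a running number within its library, and these numbers show what was listed around the pair. In the CT library novel_mir_113 came from hairpin 126 and the following hairpin, 127, was that of novel_mir_117 (847 reads). In the NCT library novel_mir_113 came from hairpin 158, novel_mir_114 from hairpin 159 and novel_mir_117 (903 reads) from hairpin 163. Only listed hairpins carry a number, and in CT these run from 1 to 240 without a gap. That novel_mir_114 has no number in CT therefore only restates that it was not listed. In NCT, 4 hairpins lay between novel_mir_113 and novel_mir_117. The other 3 of them, of novel_mir_33, novel_mir_115 and novel_mir_116, had 12, 10 and 6 reads in NCT and were also not listed in CT. The numbers followed position along each strand of a chromosome for all 18 neighbours of known place in NCT, and for 15 in CT with 1 exception. Each numbered hairpin carries the reads of 1 arm, so the division of reads between the 5p and 3p arms was not analysed here.

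Arms on the same side of the 2 hairpins resemble each other. The 3p arms match at 16 of 20 aligned positions and the 5p arms at 14 of 19, without gaps. Among all 153 pairs of the 18 hairpins with both arms, the median was 7 matching positions on either side. On the 3p side 2 other pairs had more than 16, and on the 5p side 1 other pair had more than 14. That 5p pair is novel_mir_112 with novel_mir_261, whose hairpins overlap and whose 5p arms are 1 sequence shifted by 1 nt. It is therefore not a likeness between separate places. Over their whole length the hairpins were 52.5% identical (63 of 120 aligned columns), and 24 of 2080 pairs of hairpins scored higher per nt. These 2080 pairs also include overlapping hairpins. The best local stretch was 84.0% identical over 25 columns. The longest run shared by the 2 hairpins is 7 nt, so a read of either miRNA could not have been counted for the other without mismatches.

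The 3p arms also resemble known grapevine miRNAs. The 3p arm of novel_mir_113, which is the opposite arm of the abundant one, equals vvi-miR482 at 19 of 22 positions, the most of all 162 known miRNAs, and the next best reached 15. Capitals below mark the positions at which both have the same base.
novel_mir_113 3p: UCUUaCCaACaCCUCCCAUUCC
vvi-miR482: UCUUuCCuACuCCUCCCAUUCC

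Counted from the 5′ end of vvi-miR482, the differences are U5A, U8A and U11A, so the last 11 bases are the same. Of these 3 differences, 2 fall in the seed. The 3p arm of novel_mir_114, which is the one listed with reads, equals vvi-miR3632 at 18 of 22 positions, against 14 for the next best.
novel_mir_114 3p: UUcCCaAGACCCCCcAUgCCAA
vvi-miR3632: UUuCCcAGACCCCCaAUaCCAA

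Counted from the 5′ end of vvi-miR3632, these differences are U3C, C6A, A15C and A18G. With vvi-miR482 the same arm matches at 14 of 20 positions. The star strands vvi-miR3633a* and vvi-miR3633b*, which also come from the 3p side, match the 3p arm of novel_mir_113 at 15 of 19 and 13 of 20 positions, and that of novel_mir_114 at 14 of 21 and 13 of 21. They are printed here with bases 2 to 8 in capitals, beside the strands they pair with.
vvi-miR3633a: gGAAUGGAugguuaggagag
vvi-miR3633a*: uUCCUAUAccacccauucccua
vvi-miR3633b: gGAAUGGGuggcugggaucua
vvi-miR3633b*: gUUCCCAUgccauccauuccua

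On the 5p side, vvi-miR3633a was the best match of both hairpins without gaps. It equals the 5p arm of novel_mir_114 at 14 of 20 positions and that of novel_mir_113, the abundant miRNA, at 12 of 18. For vvi-miR3633b these numbers were 13 of 21 and 11 of 19. Known miRNAs had a median of 7 matching positions with the 5p arm of novel_mir_113 and of 8 with that of novel_mir_114, and vvi-miR3634* tied with vvi-miR3633b on novel_mir_113 at 11. The match of the 5p arms is thus looser than that of the 3p arms, and it changed with the alignment. With gaps allowed, vvi-miR3633a was 1 of 3 known miRNAs tied at 14 identical bases for novel_mir_113, and 1 of 5 tied at 14 for novel_mir_114. The members aside, the best entry of the table matched the 5p arm of novel_mir_113 at 13 positions, more than the 12 of vvi-miR3633a. For the 5p arm of novel_mir_114 it matched at 13, against 14 for vvi-miR3633a. On the 3p side the best entry matched novel_mir_113 at 12 and novel_mir_114 at 11 positions, below the 19 and 18 of their best known miRNAs.

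**Figure D5:**
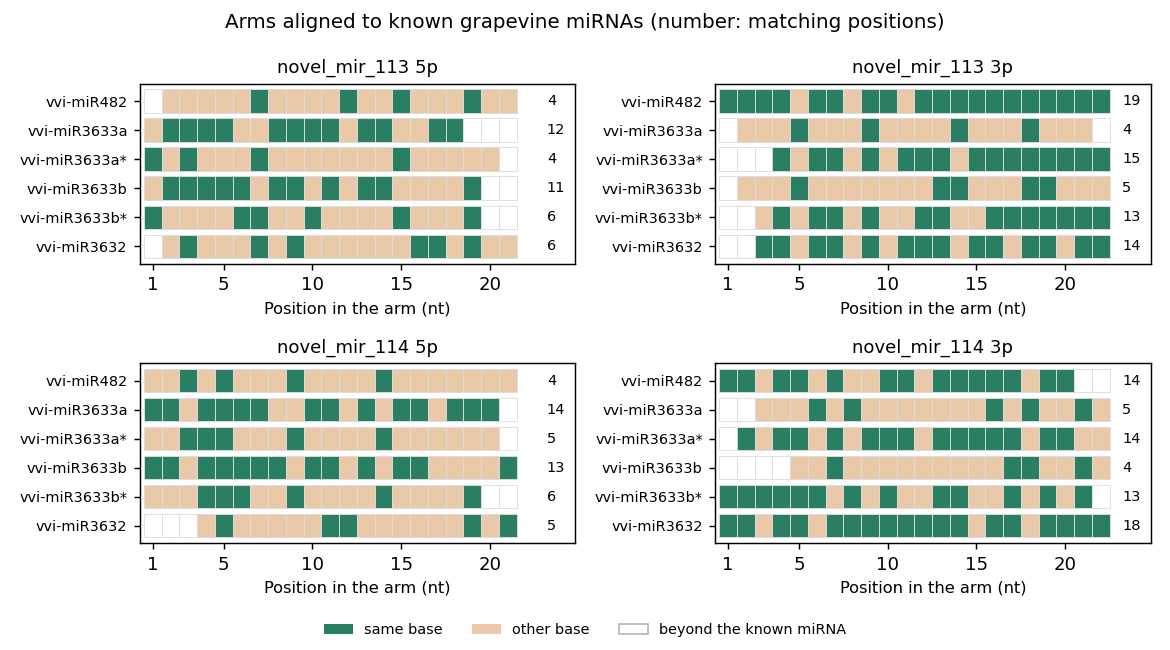
Each arm (horizontal, position in nt from its 5′ end) aligned without gaps to 6 known grapevine miRNAs, with positions of the same base in green and the number of them at the right. The 3p arm of novel_mir_113 matches vvi-miR482 at 19 positions and that of novel_mir_114 matches vvi-miR3632 at 18, while the 5p arms match vvi-miR3633a at 12 and 14.

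For the tandem arrangement, the gene order of relatives named MIR482 or MIR3633 was looked up, without their distances or strands. In the RefSeq annotation of another grapevine assembly (ASM3070453v1), used here for names and neighbours only, MIR3633B, MIR3633A and MIR482 follow each other on chromosome 17 with no gene between them. Of the 155 miRNA genes in that annotation, 19 lie on chromosome 1, none of them named MIR482 or MIR3633. The place of the gene of vvi-miR3632, the best known match of the listed arm of novel_mir_114, was not examined. Whether a gene of that relative lies on chromosome 1 is thus not known from these counts. Whether that annotation holds genes at the place of novel_mir_113 and novel_mir_114 was not examined.

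The predicted targets of novel_mir_114 are 4 transcripts, and their sites were examined for pairing with the 22 nt of its 3p arm. The sites were picked by prediction for their pairing, and the levels of these transcripts were not measured in the libraries. Capitals mark bases that form Watson-Crick pairs with novel_mir_114.
GSVIVT01014555001: UGGuAUGuGGaGUuUUGGGAA
GSVIVT01019626001: UGGCAGGGGaGUCUUGGGAA
GSVIVT01020076001: GGuAUGGGuGuUCUUGGGAA
GSVIVT01022963001: UgGGuAUGGGcGGUaUUGGGAA

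All 4 sites end in the same 7 bases, UUGGGAA, which pair with the 5′ end of the miRNA. GSVIVT01019626001, annotated as an NBS-LRR disease resistance protein, has its site at bases 1514 to 1533 of the transcript. Whether that stretch encodes the nucleotide-binding loop was not examined. The site forms 19 pairs with novel_mir_114, all 7 positions of the seed included. It has 1 mismatch at position 11 of the miRNA and 1 gap at position 16. GSVIVT01022963001, annotated as related to WNK protein kinases, has its site at bases 758 to 779, with 18 pairs, 1 G:U wobble and 3 mismatches at positions 8, 12 and 21. Its site is the one of the 4 with all positions from 9 to 11 paired, the stretch around which plant Argonaute proteins cut. GSVIVT01014555001, annotated as a sugar transporter of the major facilitator superfamily, forms 17 pairs and 2 wobbles at bases 1473 to 1493, with mismatches at positions 11 and 14. GSVIVT01020076001, annotated as a nitrate or oligopeptide transporter, forms 17 pairs and 1 wobble at bases 2413 to 2432, with mismatches at positions 10 and 12. Each of these last sites and the NBS-LRR site thus had 1 mismatch between positions 9 and 11.

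The same 4 sites were then paired, without gaps, with the other arms and the known relatives. At the WNK site novel_mir_114 formed 18 pairs, the 3p arm of novel_mir_113 16, vvi-miR3633a* and vvi-miR3632 16 and vvi-miR482 14, with a median of 8 over the 162 known miRNAs. At the NBS-LRR site novel_mir_114 formed 15 pairs without the gap, vvi-miR482, vvi-miR3633b* and vvi-miR3632 13 and the 3p arm of novel_mir_113 12, with a median of 7. At the sugar transporter site novel_mir_114 formed 17 pairs, the 3p arm of novel_mir_113 14 and vvi-miR3632 15. At the nitrate transporter site these numbers were 17, 15 and 15. No known miRNA formed more pairs than novel_mir_114 at any of the 4 sites. The sites were predicted for their pairing with novel_mir_114, so its first place follows from that choice and nothing is read from it. The 5p arms paired far less, with 4 bases for novel_mir_113 and 6 for novel_mir_114 at each site. No predicted site was analysed here for novel_mir_113, and the real-time RT-PCR levels of both miRNAs were not analysed here.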

How the data were processed

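Small RNA libraries of 1 CT and 1 NCT pool of plantlets were used. The authors trimmed reads, mapped them to the 12X PN40024 genome, set aside other non-coding RNAs and known miRNAs, and predicted further hairpins with Mireap, as their methods state. The deposited table gives each mature sequence a count of its reads in either library, not normalized, and, as other text, the hairpin number and arm behind each count. No value column was left without a library. Library totals, hairpins, places, known miRNAs and target sites came from the study's supplementary lists, joined by the whole mature sequence. The authors' own levels, ratios and p-values were not used.

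TPM was computed with clean reads. Intervals are Wilson intervals at 95%, and a count of 0 was set against 3 reads or the lowest listed count, 5 reads. Since a single library leaves no dispersion to estimate, edgeR's test was not run. RNAfold (ViennaRNA 2.7.2, 37 °C) gave the folds. Arms were aligned without gaps over at least 18 positions. Hairpins were aligned with Biopython 1.88 (match 1, mismatch -1, gap opening -2, gap extension -1). Functions were tested on simulated data. TMM factors came from edgeR 4.0.16 in R 4.3.3, and the rest was run in Python 3.11.15 (scipy 1.17.1, pandas 2.3.3, numpy 2.4.6).

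Members and lists were chosen with earlier results of these data known. The entries named are both members, the 3 best known matches of each arm plus vvi-miR482, vvi-miR3633a, b and their star strands, the 3 abundant entries nearest in ratio to novel_mir_113, the 3 NCT-only entries after novel_mir_114, entries inside either hairpin and the listed targets. Novel_mir_261, novel_mir_117, novel_mir_33, novel_mir_115 and novel_mir_116 were named after their values were seen. Alternatives were other library totals and factors, another floor, a minimum of 50 reads, older energy parameters, 26 and 4 °C, and other alignments.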

Additional observations from a re-analysis of the deposited data

How the results depend on the processing

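The log2 ratio (CT/NCT) of novel_mir_113, -0.40 with clean reads, was -0.19 with the reads listed in the table, -0.039 with the median of ratios over entries of 50 or more reads in both, 0.012 with the median of ratios and 0.015 with TMM. For novel_mir_114, the NCT level was 1041 times that of 5 reads in CT, the lowest listed count. That is a bound only if 5 reads would always have been listed. Against 3 reads, which lie under the lowest listed count and set no bound, the NCT level was 1735 times with clean reads. It was 1501 times with listed reads, 1305 with the median of ratios and 1303 with TMM. In all, 32 of 51 alternatives over 19 results stayed within counting error, gave the same value or, for matches, left the same known miRNA best or tied for best. For the log2 ratio of novel_mir_113 and the fold of novel_mir_114, only the totals of mapped and raw reads stayed within counting error. The minimum free energy of novel_mir_113 ranged to -78.0 kcal/mol and that of novel_mir_114 to -85.8 kcal/mol at 4 °C, with the same number of paired bases in every arm. Over at least 20 positions the best match of the novel_mir_113 5p arm was vvi-miR3630, with 10 positions, and the other arms kept theirs. No paired analysis was possible because CT and NCT are represented by 1 library each. For the same reason no replicate could be left out. Depth limits the pair little, since both had over 1000 reads where listed, whereas the spread between plants or libraries is unknown.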
